A study of Homo sapiens with 15 samples.

Results

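The genes described here are 8 T-box transcription factors, TBX1, TBX2, TBX3, TBX4, TBX5, TBX15, TBX18 and TBX20. They are 8 of the 57820 gene identifiers in the table of read counts and 8 of the 17 human T-box genes matched in it. They were chosen by name, but the choice was made with the counts of these same libraries in view, in all 5 conditions, so the members were selected on the values reported here. Their levels and differences are therefore given as a description. Where a member is said to be called, its fitted difference passed the threshold used for all genes, an adjusted p-value under 0.05, and this too is a description that supports nothing about the members. P-values are printed for genes outside the list. Those genes were also listed with earlier results of these data known, so their p-values are a description as well.

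RNA-seq was carried out on A673 cells, a cell line from a Ewing sarcoma, a tumour driven by the fusion protein EWS/FLI. Every condition received a retroviral shRNA on day 1 and a retroviral cDNA or empty vector on day 5, and every condition was kept under puromycin (2 μg/mL) and then also hygromycin B (400 μg/mL) up to day 16. In iLuc cells the shRNA was directed against luciferase and the vector was empty, so that endogenous EWS/FLI (endo-EF) remained. In iEF cells the shRNA was directed against EWS/FLI and the vector was empty. The 3 rescued conditions carried the same EWS/FLI shRNA and the cDNA of wild-type EWS/FLI (WT-EF), of del22 or of DAF. The del22 form is without the EWS domain. In DAF, tyrosines in the amino-terminal part of the EWS domain are replaced by alanines, and the other tyrosines of the domain are kept. All 5 conditions are 1 cell line under drug selection after retroviral infection, and each has 3 libraries, numbered 1 to 3. The labels give only these numbers, while the study's own scheme describes 1 replicate as a complete round of infection, rescue, selection and harvest.

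T-box proteins bind DNA through a conserved domain, the T-box, and act as activators or repressors of transcription in the embryo, where they set the identity of heart, limb and pharyngeal tissue. TBX2, TBX3, TBX4 and TBX5 form one subfamily. TBX2 and TBX3 are mainly repressors that pattern the cardiac conduction system and, in tumour cells, repress cell-cycle inhibitors such as CDKN1A, while TBX4 and TBX5 are activators needed for the hindlimb and the forelimb. TBX1, TBX15, TBX18 and TBX20 belong to another subfamily, with roles in the pharyngeal arches and cardiac outflow tract, the skeleton and skeletal muscle, the epicardium and the sinus node, and the heart muscle. EWS/FLI binds DNA through the ETS domain of FLI, at ETS sites and at GGAA microsatellites, which are tandem repeats of GGAA.

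GGAA repeats were searched in GRCh37 around the start of the canonical GENCODE transcript of each of the 8 genes and of all 15986 protein-coding genes tested. No run of 4 or more repeats lay within 5 kb of the start of any of the 8 genes, where 3.3% of the 15986 genes had one. Within 100 kb, 5 of the 8 had at least 1 run and TBX2, TBX4 and TBX18 had none, and 54.6% of all genes had one. The longest runs were 12 repeats for TBX1 and TBX20, 11 for TBX15, 10 for TBX5 and 9 for TBX3, and 18.5% of all genes had a run of at least 10 repeats in that distance. The longest run of each gene is printed with 20 bases on either side, with the repeats in capitals and on the strand that reads GGAA. TBX3 had another run of 9 repeats, 46.4 kb downstream of its start, and the nearer one is printed.
TBX1: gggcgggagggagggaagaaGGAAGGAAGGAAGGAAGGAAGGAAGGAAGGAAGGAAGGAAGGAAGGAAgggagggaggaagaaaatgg
TBX20: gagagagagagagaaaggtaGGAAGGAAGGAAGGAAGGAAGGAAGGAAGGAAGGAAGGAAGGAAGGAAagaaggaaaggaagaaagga
TBX15: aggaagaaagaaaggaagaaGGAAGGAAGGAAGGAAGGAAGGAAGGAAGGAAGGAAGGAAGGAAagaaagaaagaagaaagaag
TBX5: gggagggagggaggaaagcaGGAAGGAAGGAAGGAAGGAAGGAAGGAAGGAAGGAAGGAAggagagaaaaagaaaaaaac
TBX3: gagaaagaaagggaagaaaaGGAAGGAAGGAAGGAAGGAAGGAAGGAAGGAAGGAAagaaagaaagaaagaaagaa
The stretches are chr22:19649018-19649105, 99.2 kb upstream of the TBX1 start, chr7:35362455-35362542, 68.8 kb upstream of TBX20, chr1:119435876-119435959, 95 kb downstream of the TBX15 start, chr12:114912946-114913025, 69.0 kb upstream of TBX5, and chr12:115078388-115078463, 43.6 kb downstream of the TBX3 start. The TBX15 run lies in an intron of TBX15, and the other 4 lie between genes. TBX3 had 8 runs within 100 kb, 5 of them between 43.5 and 48.6 kb downstream. All lengths are those of the reference genome, the repeat lengths of A673 cells were not measured here, and no binding was measured in these libraries.

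**Figure D1:**
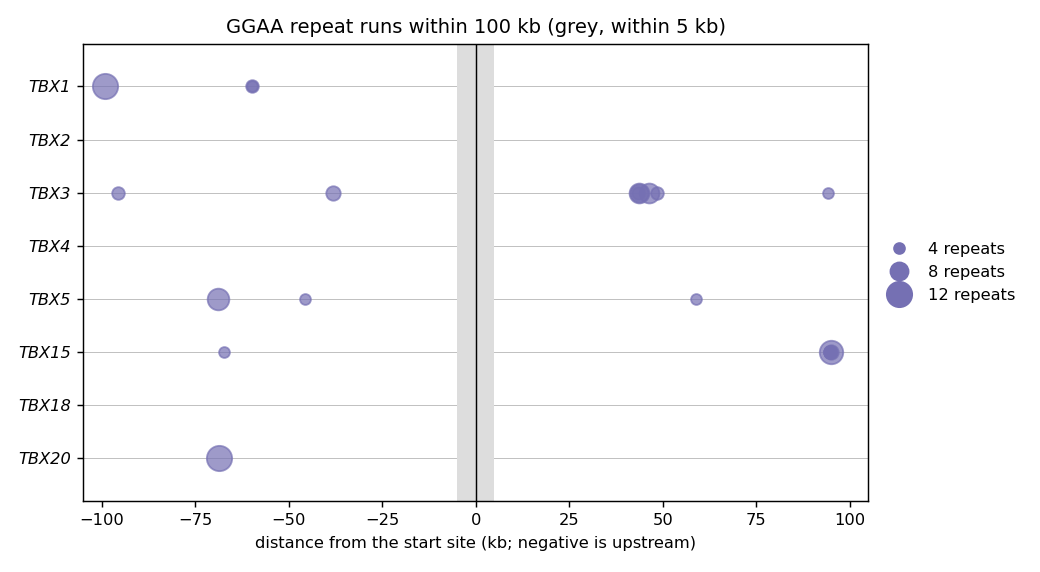
Each circle is a run of at least 4 GGAA repeats in GRCh37, placed by its distance in kb from the start site of each of the 8 genes (negative values are upstream) and sized by its number of repeats. TBX2, TBX4 and TBX18 have no run within 100 kb, and no gene has one in the grey zone within 5 kb.

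The libraries held 28659475 to 41859880 counted reads. FLI1, whose counts include both endo-EF and the cDNA, stood at 49.4 ± 2.62 CPM (read counts scaled to a common library size after TMM normalization, mean ± SD, n = 3) in iLuc, 14.6 ± 1.44 in iEF, 17.6 ± 1.39 in WT-EF, 31.2 ± 6.08 in del22 and 24.3 ± 2.64 in DAF cells. Its log2 fold change over iEF was 0.27 ± 0.10 in WT-EF (adjusted p = 0.0538) and 1.09 ± 0.10 in del22 cells (adjusted p = 0.000446). Both p-values are from the quasi-likelihood test of edgeR, Benjamini-Hochberg adjusted. In DAF cells it was 0.74. The WT-EF libraries lay below every del22 and DAF library in FLI1, and the part of this in the differences between constructs was not tested. The study's shRNA targets the 3′UTR of EWS/FLI, and its western blot showed the tagged constructs as protein. Whether a cDNA transcript yields as many FLI1 reads as an endogenous one was not tested. The FLI1 values therefore do not compare the amounts of endo-EF and construct. Of the Ewing sarcoma markers, NR0B1, NKX2-2 and EWSR1 were detected in all 15 libraries, and CD99, a defining surface marker, had 0 to 3 counts in each library. Whether reads of CD99, which lies in a region shared by the X and Y chromosomes, were lost in mapping was not tested. Of the markers of other cell types, PTPRC, of leukocytes, had 7 to 31 counts per library and was not called in any of the 7 comparisons. EPCAM, of epithelial cells, had 21, 30 and 33 counts in iLuc, 12, 13 and 12 in WT-EF, 3, 4 and 5 in iEF, 3, 8 and 3 in del22 and 8, 5 and 5 in DAF libraries. It was higher than in iEF in iLuc (log2 fold change 2.76 ± 0.42, adjusted p = 7.51e-05) and in WT-EF cells (1.46 ± 0.45, adjusted p = 0.0239, the quasi-likelihood test of edgeR, Benjamini-Hochberg adjusted), and the WT-EF call was lost in 9 of 24 alternative analyses. Its part in the results of the 8 genes was not tested. Of 3 heart muscle markers, MYH6 had 0 or 1 count and NPPA 0 to 3 counts in each library, and TNNT2 had 20 to 35 counts in iLuc libraries and 0 to 8 in the others. In bulk RNA, more cells expressing a gene and more RNA per cell cannot be told apart.

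All 8 genes averaged at least 1 count per library, the limit for the fit, and 7 averaged at least 10, the exception being TBX4. Per kb of exon, the T-box gene with the highest mean over the 15 libraries was MGA at 10.4 CPM per kb, followed by TBX18 at 3.05 and TBX3 at 0.867. TBX2 (0.39), TBX20 (0.284), TBX15 (0.259), TBX1 (0.172) and TBX5 (0.102) came next on the same scale, with TBX19 (0.395) just ahead of them. TBX4, at 0.00799 CPM per kb, was among the 4 lowest of the family. Only TBX18 and TBX3 among the 8 had 77 or more counts in every library, so the values of the other 6 rest on few reads in at least some conditions.

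**Figure D2:**
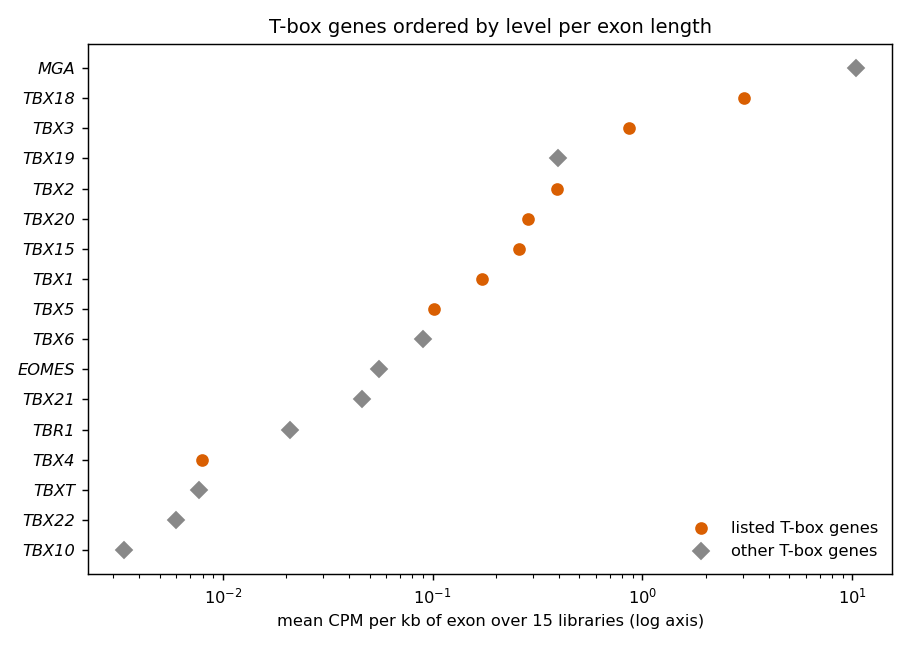
Mean level over 15 libraries, in CPM per kb of exon on a log axis, for the 8 listed T-box genes (circles) and the 9 others (diamonds). TBX18 and TBX3 are the highest of the 8 and TBX4 the lowest.

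TBX2 (ENSG00000121068, chr17:59477204-59486827 of GRCh37, plus strand) had the largest fitted difference from iEF of the 8 genes, in iLuc and in WT-EF cells alike. It had 186, 117 and 417 counts in the iEF libraries 1 to 3, and 2 counts in each of the 3 iLuc libraries. In CPM these are 4.89, 3.95 and 12.1 in iEF and 0.0611, 0.0561 and 0.0597 in iLuc cells. The groups lay far apart, without overlap. The summed counts, scaled for library size, were 119.7 times higher in iEF than in iLuc cells. The exact 95% interval was 54.7 to 327.3 and covers counting error only. The fitted log2 fold change of iLuc over iEF was -6.74 ± 0.43 (SE). That SE comes from the test statistic and is narrower than the counting error in the interval, with 2 counts in each iLuc library.

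Rescue with WT-EF left TBX2 at 3, 6 and 3 counts, or 0.107 ± 0.0445 CPM (SD, n = 3), close to the iLuc level. The ratio of iEF to WT-EF counts was 65.5 (exact 95% interval 37.3 to 127.4, counting error only) and the log2 fold change of WT-EF over iEF was -5.88 ± 0.39. The WT-EF libraries all lay above the iLuc libraries, by a fitted log2 difference of 0.86 ± 0.68 that was not called and that rests on 12 against 6 reads in all. In DAF cells TBX2 had 19, 45 and 86 counts (0.668, 1.19 and 2.88 CPM), below every iEF library and above every WT-EF library. Its log2 fold change was -2.16 ± 0.28 for DAF over iEF and -3.72 ± 0.41 for WT-EF over DAF.

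In del22 cells TBX2 had 76, 79 and 142 counts, or 2.23, 2.06 and 5.07 CPM, and these overlapped the iEF values. Within each replicate number the order was the same, with iEF highest, then del22, DAF, WT-EF and iLuc. The library with the number 3 was the highest of its group in iEF, del22 and DAF cells. The log2 fold change of del22 over iEF was -1.12 ± 0.26 and was not called, but it was called in 8 of 24 alternative analyses, with values from -1.13 to -1.11. These were DESeq2's Wald test, the fit with no filter on low counts, the fit of only the 6 libraries compared, and the fits without iLuc replicate 3, without DAF replicate 1 or without any one of the WT-EF libraries. The difference of DAF from del22 was -1.04 ± 0.28 and was not called, and it was called with no filter on low counts (-1.04), in the fit of 6 libraries (-1.0) and without WT-EF replicate 3 (-1.02).

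TBX3 (ENSG00000135111, chr12:115108060-115121980 of GRCh37, minus strand) stood in another order. It had 115, 77 and 129 counts in iEF and 119, 109 and 102 in iLuc cells (3.12 ± 0.584 and 3.25 ± 0.338 CPM), with overlapping values and a log2 fold change of 0.06 ± 0.34. DAF cells had 131, 385 and 397 counts, or 4.60, 10.2 and 13.3 CPM, and all lay above the iEF and iLuc libraries. The log2 fold change of DAF over iEF was 1.57 ± 0.34. It was called, and the call was lost without the libraries of replicate 2 (1.38) and without DAF replicate 3 (1.16). The WT-EF libraries had 276, 205 and 139 counts (7.64, 5.42 and 3.70 CPM), and the lowest of them fell within the iEF range. For WT-EF over iEF the log2 fold change was 0.85 ± 0.34, not called, and it was called without WT-EF replicate 3 (1.20), without all libraries of replicate 3 (1.26), without DAF replicate 1 (0.82), with DESeq2 (0.89), with no filter (0.85) and in the fit of 6 libraries (0.84). With del22 the counts were 132, 209 and 120, a log2 fold change over iEF of 0.54 ± 0.34. Replicate 1 was the highest of the 3 libraries in WT-EF cells and the lowest in DAF cells.

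**Figure D3:**
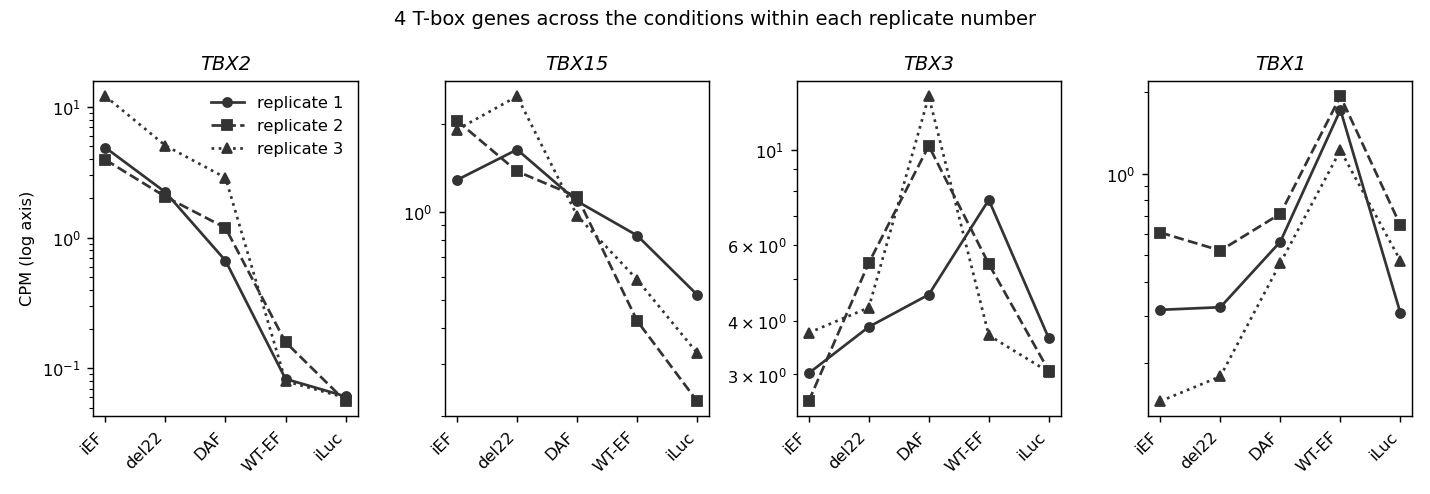
Level in CPM on a log axis of TBX2, TBX15, TBX3 and TBX1 in the 5 conditions, with the libraries of 1 replicate number joined by a line. TBX2 falls from iEF to iLuc in the same order in all 3 lines, TBX3 is highest in DAF cells in replicates 2 and 3 and in WT-EF cells in replicate 1, and TBX1 is highest in WT-EF cells in all 3.

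TBX5 (ENSG00000089225, chr12:114791716-114846247 of GRCh37, minus strand), the forelimb and heart factor that is mutated in Holt-Oram syndrome, was highest in iLuc cells. It had 26, 24 and 54 counts there (0.795, 0.673 and 1.61 CPM) and 10, 16 and 19 counts in iEF cells (0.263, 0.540 and 0.553 CPM), and the groups did not overlap. The log2 fold change was 1.15 ± 0.33. The call was lost in 5 of 24 alternative analyses, without replicate 1 (0.97) or replicate 3 (0.89) of all conditions and without iLuc replicate 3 (0.91), iEF replicate 1 (0.96) or iEF replicate 3 (1.01). WT-EF cells had 9, 7 and 20 counts, which overlapped iEF, and WT-EF stood below iLuc by a log2 fold change of -1.66 ± 0.34. That difference was called, except without the libraries of replicate 1 (-1.65). In del22 and DAF cells there were 8 to 10 and 5 to 9 counts. TNNT2, the heart muscle gene, and EPCAM also had their highest counts in iLuc cells, while MYH6 and NPPA were near 0, and any part of other cells in the TBX5 values was not tested.

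TBX4 (ENSG00000121075, chr17:59529765-59562471 of GRCh37, plus strand), which specifies the hindlimb and lies 42.9 kb from TBX2 on chromosome 17, was barely detected. It had 5, 0 and 2 counts in iLuc cells and 0 in each iEF library. In WT-EF cells it had 0, 1 and 2 counts, in del22 cells 1, 3 and 0, and in DAF cells 0, 3 and 0. No fold is given, and a difference between conditions was not detectable at this depth. TBX3 and TBX5 form the other such pair in the list, 261.8 kb apart on chromosome 12.

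TBX15 (ENSG00000092607, chr1:119425669-119532179 of GRCh37, minus strand), which acts in the skeleton and in glycolytic muscle fibres, had 49, 61 and 66 counts in iEF and 17, 8 and 11 in iLuc libraries. These are 1.29, 2.06 and 1.92 CPM against 0.520, 0.224 and 0.328, with a log2 fold change of -2.30 ± 0.36 and no overlap. The del22 libraries held 56, 53 and 70 counts, overlapping iEF (log2 fold change 0.04 ± 0.30). WT-EF libraries held 30, 16 and 22 counts and lay below all iEF libraries, at a log2 fold change of -1.53 ± 0.33 that was called except without the libraries of replicate 2 (-1.17). DAF libraries held 31, 43 and 29 counts, between the iEF and WT-EF libraries without overlap, at a log2 fold change of -0.71 ± 0.31 over iEF that was not called. As for TBX2, iEF and del22 were the highest groups, DAF was intermediate, and WT-EF and iLuc were the lowest. The fold differences of TBX15 were smaller than those of TBX2.

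TBX1 (ENSG00000184058, chr22:19744226-19771116 of GRCh37, plus strand), the pharyngeal arch factor whose loss underlies much of DiGeorge syndrome, was highest in WT-EF cells. It had 62, 73 and 46 counts there, or 1.72, 1.93 and 1.22 CPM. The other 4 conditions all lay between 5 and 27 counts, and their group means ran from 0.341 CPM in del22 to 0.581 CPM in DAF, with overlapping neighbours. The lowest WT-EF library was above every library of the other conditions. The log2 fold change of WT-EF was 2.26 ± 0.32 over iEF, 1.77 ± 0.31 over iLuc and 1.49 ± 0.31 over DAF. All 3 were called, and the one over iLuc lost its call without the libraries of replicate 1 (1.48). In iLuc cells, which keep endo-EF, TBX1 had 10, 23 and 16 counts against 12, 18 and 5 in iEF, a log2 fold change of 0.49 ± 0.36 with overlapping values.

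TBX18 (ENSG00000112837, chr6:85397069-85474316 of GRCh37, minus strand), a factor of the epicardium, the sinus node and the ureter, had the highest level of the 8 and the smallest standard errors. It had 1278, 897 and 1202 counts in iEF (33.6, 30.3 and 35.0 CPM) and 880, 762 and 740 in WT-EF cells (24.4, 20.1 and 19.7 CPM), without overlap. The log2 fold change was -0.63 ± 0.13. DAF libraries had 753, 974 and 648 counts and lay below all iEF libraries, with a log2 fold change of -0.43 ± 0.13. This call was lost in 14 of 24 alternative analyses, where the fold change ran from -0.53 to -0.26. They include the fit with no replicate block (-0.42), the fits without replicate 1 (-0.46), 2 (-0.53) or 3 (-0.26), and the fits without iLuc replicate 1 or 3, iEF replicate 1 or 3, WT-EF replicate 1, del22 replicate 1 or 2, or any one DAF library, of which the fit without iEF replicate 3 gave the smallest difference (-0.26). In iLuc cells, at 932, 1100 and 738 counts, the values overlapped iEF (log2 fold change -0.30 ± 0.13, not called). It was called without replicate 2 of all conditions (-0.46), without iLuc replicate 2 (-0.42) and without iEF replicate 2 (-0.41). WT-EF over iLuc differed by -0.34 ± 0.13, not called, and was called without replicate 3 of all conditions (-0.35) and without iEF replicate 3 (-0.32). The del22 libraries, at 1001, 1059 and 566 counts, also lay below all iEF libraries in CPM (log2 fold change -0.38 ± 0.13, not called). DAF differed from del22 by -0.06 ± 0.13, not called.

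TBX20 (ENSG00000164532, chr7:35242042-35293711 of GRCh37, minus strand), a factor of the heart muscle and endocardium, had 5 to 28 counts in each library. The group means ran from 0.650 CPM in iEF to 0.330 CPM in iLuc, and each condition overlapped the next in that order. The iLuc libraries (0.336, 0.505 and 0.149 CPM) just failed to reach the iEF libraries (0.631, 0.506 and 0.814 CPM), with a log2 fold change of -1.0 ± 0.41 that was not called. It was called with no filter on low counts (-1.01), without iLuc replicate 2 (-1.41) and without iEF replicate 2 (-1.30). WT-EF over iEF differed by -0.12 ± 0.38.

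**Figure D4:**
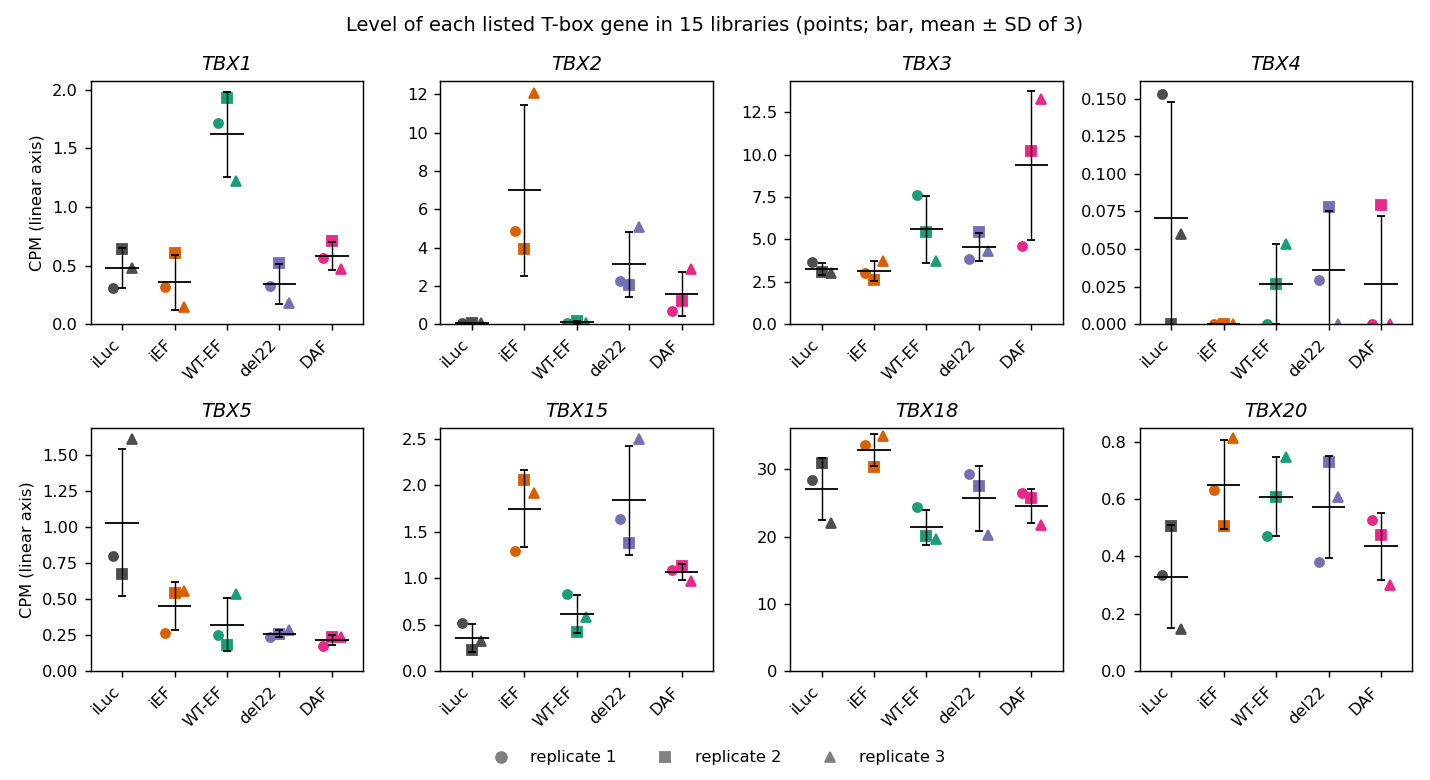
Level in CPM of each of the 8 genes in every library, on a linear axis that starts at 0 and differs between panels. Points are libraries, horizontal bars are means and whiskers are 1 SD of 3 libraries. TBX2 and TBX15 are high in iEF and del22 cells, TBX1 in WT-EF, TBX3 in DAF and TBX5 in iLuc cells.

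A gene was called where its adjusted p-value was under 0.05 by the quasi-likelihood test of edgeR, with Benjamini-Hochberg adjustment over 28793 genes. The members were selected on these same counts, so their calls are no test of them and nothing is read from their number against the share of all genes. In iLuc against iEF cells, 1 of the 8 was called higher (TBX5) and 2 lower (TBX2 and TBX15), where 19.5% and 22.1% of all genes were called higher and lower. In WT-EF against iEF cells, 1 was called higher (TBX1) and 3 lower (TBX2, TBX15 and TBX18), beside 12.9% and 17% of all genes. In DAF against iEF cells, 1 was called higher (TBX3) and 2 lower (TBX2 and TBX18), beside 5% and 6.19% of all genes. In del22 against iEF cells none of the 8 was called in either direction, beside 0.472% and 0.83%. These 4 comparisons share the same iEF libraries.

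Between constructs, WT-EF against iLuc cells had 1 of the 8 called higher (TBX1) and 1 lower (TBX5), beside 10.7% and 9.03% of all genes. WT-EF against DAF cells had 1 called higher (TBX1) and 1 lower (TBX2), beside 12.4% and 16.1%. DAF against del22 cells had none called, beside 0.948% and 0.379%.

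**Figure D5:**
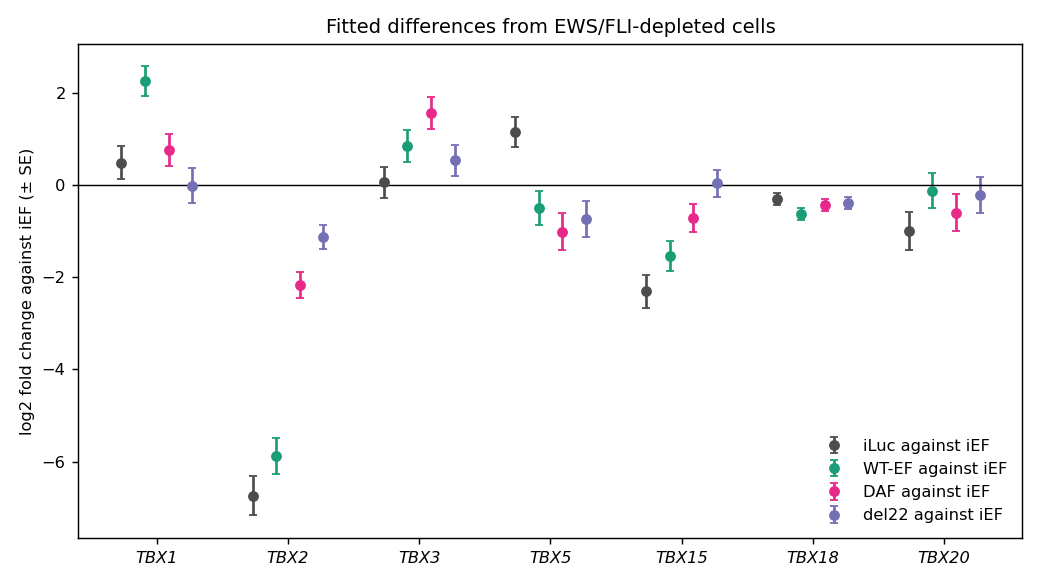
Fitted log2 fold change against iEF (± SE) in iLuc, WT-EF, DAF and del22 cells for 7 of the 8 genes, TBX4 being left out for its few counts. TBX2 has the largest differences, at -6.74 in iLuc and -5.88 in WT-EF cells, and TBX1 (2.26 in WT-EF), TBX3 (1.57 in DAF) and TBX5 (1.15 in iLuc) are the called increases.

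The other 9 T-box genes are those left outside the list by the same choice, so their p-values too are a description. TBXT, TBX10 and TBX22 averaged under 1 count and stayed out of the fit, with 0 to 4 counts in each library. Of the 6 tested, MGA, which carries a T-box and a second DNA-binding domain and acts in a repressive complex, was the only one called against iEF. It rose from 177.9 ± 11.7 CPM in iEF to 213.9 ± 14.8 in iLuc (log2 fold change 0.27 ± 0.07, adjusted p = 0.00982), 235.8 ± 6.32 in WT-EF (0.41 ± 0.07, adjusted p = 0.000688) and 219.9 ± 1.9 in DAF cells (0.31 ± 0.07, adjusted p = 0.0153; the quasi-likelihood test of edgeR, Benjamini-Hochberg adjusted). The groups did not overlap with iEF in any of the 3. The iLuc call was lost without replicate 1 or 2 of all conditions and without iLuc replicate 2, iEF replicate 2 or iEF replicate 3. The DAF call was lost without replicate 1, 2 or 3 of all conditions and without iEF replicate 3 or DAF replicate 3. The fold changes over all 24 alternatives stayed between 0.22 and 0.30 for iLuc and between 0.28 and 0.38 for DAF. In del22 cells MGA differed by 0.16 ± 0.07 (adjusted p = 0.351, same test).

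EOMES, a factor of mesendoderm and of lymphocytes, had 3, 33 and 25 counts in DAF cells and at most 11 in any other library. It was lower in WT-EF than in DAF cells by a log2 fold change of -2.32 ± 0.77 (adjusted p = 0.0356, the quasi-likelihood test of edgeR, Benjamini-Hochberg adjusted), although the lowest DAF library overlapped WT-EF, and the call was lost in 6 of 23 alternative analyses, those without replicate 2 or 3 of all conditions, of WT-EF or of DAF. Over the 23 it ran from -2.97 to -1.57. For DAF over iEF its log2 fold change was 2.20 ± 0.78 (adjusted p = 0.0905, same test). TBX19, the pituitary factor, stood between 28 and 77 counts, and TBX6, TBX21 and TBR1 at 17 counts or fewer, and none of these 4 was called in any of the 7 comparisons.

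Genes that T-box factors are known to control, their partners and corepressors and the signals upstream of them were listed, and 32 of them were tested. In iLuc against iEF cells 6 of the 32 rose and 15 fell, where 19.5% and 22.1% of all genes rose and fell, with a median log2 fold change of -0.53 beside 0.04 over all genes. In WT-EF against iEF cells 5 rose and 13 fell, beside 12.9% and 17% of all genes, with a median of -0.31 beside -0.01. In DAF against iEF cells 2 rose and 6 fell, beside 5% and 6.19% (median -0.08 beside 0.00). In del22 against iEF cells 1 rose and none fell, beside 0.472% and 0.83% (median -0.14 beside 0.01).

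Among targets of repression by TBX2 and TBX3, CDKN1A, the cyclin-dependent kinase inhibitor p21, stood at 92.3 ± 16.1 CPM in iEF and 16.1 ± 1.86 CPM in iLuc cells. It fell by 2.52 on the log2 scale in iLuc (adjusted p = 1.81e-08) and by 0.71 in WT-EF cells (adjusted p = 0.00217), and it rose by 0.82 in del22 (adjusted p = 0.0148) and by 0.72 in DAF cells (adjusted p = 0.0059, all by the quasi-likelihood test of edgeR, Benjamini-Hochberg adjusted). The del22 call was lost in 7 of 24 alternative analyses, those with no replicate block, without replicate 1 or 2 of all conditions, and without replicate 2 or 3 of iEF or of del22, over a range of 0.63 to 1.02. The DAF call was lost in 2, with no replicate block and without the libraries of replicate 2 (range 0.59 to 0.87). CDKN2A, the other inhibitor known as a target of TBX2, had 0 counts in all 15 libraries. It could therefore show no difference between conditions, and whether the gene is present in these cells was not tested. NDRG1, a stress-response gene repressed by TBX2 in breast cancer cells, stood at 134.2 ± 9.74 CPM in iEF, 4.29 ± 0.247 in iLuc and 31.5 ± 20.8 in WT-EF cells, with log2 fold changes of -4.97 ± 0.38 (adjusted p = 1.07e-07) and -2.19 ± 0.33 (adjusted p = 0.000149, same test). Its WT-EF libraries differed widely, at 51.1, 33.5 and 9.77 CPM.

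GJA1, the gap junction gene of connexin 43, fell in iLuc (-0.78 ± 0.12), WT-EF (-0.60 ± 0.12) and DAF cells (-0.89 ± 0.12). The cardiac targets NPPA, NPPB and FGF10 and the epithelial cadherin CDH1 averaged under 10 counts per library.

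Of the cardiac partners, HAND2 and ISL1, factors of the second heart field, rose in both iLuc and WT-EF cells. HAND2 rose by 1.51 ± 0.22 and 1.55 ± 0.22 on the log2 scale, and by 0.91 ± 0.22 in DAF cells, and ISL1 by 1.71 ± 0.20 and 1.77 ± 0.20. The DAF call of HAND2 was lost without replicate 1 or 2 of all conditions and without iEF or DAF replicate 2. MEF2C, a muscle and heart factor, fell by 2.46 in iLuc and by 0.92 in WT-EF cells, the latter call being lost without replicate 1 of all conditions, without iEF replicate 3 and without WT-EF replicate 2 or 3. WWTR1, the coactivator TAZ, which binds TBX5, fell by 1.78 and 1.25 and did not pass in DAF cells, where it stood at 268.2 ± 12.4 CPM beside 245.7 ± 11.4 in iEF. SALL4, a TBX5 partner in the limb, fell by 0.63 in iLuc cells, a call lost without replicate 2 of all conditions, of iLuc or of iEF.

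The Groucho corepressors of the TLE family moved in different directions. TLE2 rose from 18, 32 and 15 counts in iEF to 155, 315 and 170 in iLuc cells (log2 fold change 3.26 ± 0.48, adjusted p = 5.65e-05, the quasi-likelihood test of edgeR, Benjamini-Hochberg adjusted). In WT-EF cells it had 25, 40 and 153 counts, a call (1.43 ± 0.49, adjusted p = 0.0415, same test) that was lost in 9 of 24 alternative analyses, among them those without WT-EF replicate 3, iEF replicate 1 or 3, del22 replicate 1 or DAF replicate 1. TLE3 fell by 0.28 in iLuc and 0.50 in WT-EF cells, and TLE1 fell by 0.83 in iLuc and 1.06 in DAF cells. The iLuc calls of TLE1 and TLE3 were each lost in 8 of 24 alternatives, and the DAF call of TLE1 in 13, among them the fits with no replicate block and without any one iEF or DAF library. TLE4 rose by 0.51 in WT-EF cells, except without the libraries of replicate 2.

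Upstream of the family, BMP2, a ligand that induces TBX2 and TBX3 in the embryo, had 4, 1 and 3 counts in iLuc against 104, 28 and 29 in iEF cells (log2 fold change -4.16 ± 0.75, adjusted p = 0.000383, the quasi-likelihood test of edgeR, Benjamini-Hochberg adjusted). Its WT-EF libraries, at 84, 35 and 16 counts, overlapped those of iEF. RARB, the retinoic acid receptor beta, fell by 4.85 in iLuc and by 2.81 in WT-EF cells, from 32.4 ± 7.02 CPM in iEF to 1.12 ± 0.33 and 4.38 ± 2.75. WNT5A, a noncanonical Wnt ligand, fell by 1.85 in WT-EF and by 1.12 in DAF cells, at 10.7 ± 2.66 and 18.2 ± 7.06 CPM beside 38.7 ± 4.38 in iEF and 32.6 ± 5.93 in iLuc. Its DAF call was lost without replicate 2 of all conditions, iEF replicate 1 or 3, or DAF replicate 2 or 3.

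The genes that flank the 8 on their chromosomes were listed as well, with 20 of 23 names matched and 15 tested. In iLuc against iEF cells 3 rose and 6 fell, where 19.5% and 22.1% of all genes rose and fell (median log2 fold change 0.14 beside 0.04 over all genes). In WT-EF against iEF cells 3 rose and 6 fell, beside 12.9% and 17% of all genes (median -0.07 beside -0.01). NT5E, the ecto-5′-nucleotidase CD73, lies 685.0 kb from TBX18 on chromosome 6 and fell by far more than TBX18, from 3352 ± 581.3 CPM in iEF to 37.8 ± 13 in iLuc (log2 fold change -6.52 ± 0.35, adjusted p = 4.61e-09) and 521.1 ± 308.4 in WT-EF cells (-2.77 ± 0.30, adjusted p = 7.12e-06, the quasi-likelihood test of edgeR, Benjamini-Hochberg adjusted). SNX14, next to NT5E, fell by 1.06 and 0.92, and CEP162, on the other side of TBX18, rose by 0.79 and 0.46.

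Beyond TBX3 and TBX5 on chromosome 12, MED13L fell by 1.08 in iLuc and 0.67 in WT-EF cells and RBM19 rose by 0.29 and 0.62. Beside TBX20 on chromosome 7, HERPUD2 fell by 0.68 and 0.56 and DPY19L1 by 0.29 and 0.33. BRIP1, on the far side of TBX4 from TBX2, rose by 0.42 in iLuc cells and fell by 0.47 in DAF cells, and WARS2, beside TBX15, rose by 0.31 in WT-EF cells. The WT-EF call of CEP162 was lost in 5 of 24 alternatives, the iLuc call of RBM19 in 8, the WARS2 call in 11, the DPY19L1 calls in 7 (iLuc) and 8 (WT-EF), the iLuc call of BRIP1 in 1, the fit without replicate 2, and its DAF call in 2, the fits without replicate 1 or 3 of all conditions.

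Antisense transcripts overlap several of the 8 genes, and the strand setting of the counting is not given in the sources used here, so reads of the 2 strands cannot be told apart. TBX2-AS1 had 6, 5 and 9 counts in iEF, 0, 2 and 0 in iLuc and 0, 1 and 0 in WT-EF cells. TBX5-AS1 had 29, 17 and 14 counts in iEF and 38, 21 and 49 in iLuc cells. TBX18-AS1 and TBX3-AS1 had at most 3 counts in any library. GNB1L overlaps the end of TBX1 on the other strand and had 66 to 133 counts in each library.

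For the 3 members averaging at least 50 counts, the 2 genes with the most similar levels over the 15 libraries were taken by Pearson's r of log2(CPM + 0.5) among 13175 genes. For TBX2 they were SUCLG2, a mitochondrial succinyl-CoA ligase subunit (r = 0.979), and KDELR2, a receptor that returns proteins to the endoplasmic reticulum (r = 0.970). SUCLG2 stood at 46.5 ± 5.73 CPM in iEF, 33.8 ± 5.3 in del22, 27.9 ± 4.59 in DAF, 19.7 ± 1.66 in WT-EF and 20.4 ± 0.274 in iLuc cells, a range far narrower than that of TBX2. For TBX3 they were LY96, a coreceptor of TLR4 (r = 0.912), highest in DAF cells at 27.5 ± 8.19 CPM, and PIK3C3, the class III PI3 kinase (r = 0.888). For TBX18 they were PIGV, a mannosyltransferase of GPI anchor synthesis (r = 0.924), and CEP250, a centrosome protein (r = 0.910). Libraries of a condition share their treatment, so each r follows largely the 5 group means, and the genes were picked as the highest of all, so no p-value is given.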

How the data were processed

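RNA-seq counts of 15 libraries in 5 conditions were analysed. Condition and replicate number were taken from the labels. The authors aligned the reads to hg19 with STAR (version 2.5.1b in the submitters' processing notes) and counted them per gene with HTSeq, and the deposited counts are whole numbers without normalization. The annotation release and the strand setting are not given in the sources used here. The authors also deposited counts adjusted for batch with ComBat and a table of their own fold changes and p-values, and neither was used here. 3 value columns of no sample described here were left out.

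Counts were fitted in R 4.3.3 with edgeR 4.0.16 (TMM, genes averaging at least 1 count, 28793 genes, quasi-likelihood test) in 1 model of condition and replicate number, the latter because the study adjusted its replicate sets for batch. P-values were adjusted by Benjamini-Hochberg within each comparison, with a threshold of 0.05. SE is the absolute log2 fold change divided by the square root of the F statistic of the quasi-likelihood test. It can be smaller than counting error where a group has few reads, as for TBX2 in iLuc and WT-EF cells. The fit was tested on simulated data. Totals were 28659475 to 41859880 per library, and intervals from counts cover counting error only. P-values measure the spread between these libraries of 1 cell line.

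The members and lists were chosen with earlier results of these data known. Named genes are the 17 T-box genes, FLI1, the markers, list genes past the threshold in iLuc or WT-EF against iEF and averaging 50 counts or more, and the genes most like each member. Other genes named as low, overlapping or undetected were added after their values were seen. Positions and sequences are GRCh37 with GENCODE transcripts, which may differ from the annotation of the counts. GJA5, C17orf82, SEPT5, C22orf29 and PECAM1 were not analysed here. A few listed genes past the threshold and the promoter sequences are not reported here, though the list counts include all genes tested.

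Alternatives were DESeq2 1.42.0 (size factors, and its Wald test), no filter or a filter of 10 counts, no replicate block, a fit of the 6 libraries of a comparison alone, and leaving out each replicate number or library in turn.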

Additional observations from a re-analysis of the deposited data

How the results depend on the processing

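Of 1327 fold changes of the 8 genes under alternative analyses, 1298 moved by less than the spread between replicates, 29 moved by more and none changed direction among called values. Many of these alternatives left out a library of a condition not compared, or changed only the filter or the scaling. Such fits could move a fold change only a little, so these numbers are no measure of stability. The number of the 8 called in del22 against iEF cells went from 0 to 1 (TBX2) under DESeq2's Wald test, with no filter on low counts and with only the 6 libraries compared, and in DAF against del22 cells it went from 0 to 2 (TBX2 and TBX3) with no filter and with only 6 libraries. Of the other T-box genes, 2 rather than 1 were called in iLuc and in DAF against iEF with no filter, and 2 in DAF against iEF with only 6 libraries, EOMES being added. Of the targets, partners and upstream signals, 1 was called in del22 against iEF, and 2 under DESeq2's Wald test or a minimum average of 10 counts and 5 with no filter. Leaving out libraries gave 2 to 6 of the 8 in iLuc against iEF, 3 to 5 in WT-EF, 0 to 1 in del22 and 1 to 3 in DAF against iEF, 0 to 4 in WT-EF against iLuc, 2 to 4 in WT-EF against DAF and 0 to 1 in DAF against del22. For the other T-box genes it gave 0 to 1 in iLuc and 0 to 2 in DAF against iEF, and for the targets and partners 0 to 2 in del22 and 2 to 9 in DAF against iEF.

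The fit with no replicate block called 3 of the 8 in iLuc, 4 in WT-EF, 0 in del22 and 2 rather than 3 in DAF against iEF (TBX18 was lost), and 0 rather than 1 of the targets and partners in del22 and 5 rather than 8 in DAF cells. Of 30 pairs of libraries with the same replicate number, 21 had deviations from the group means correlated at over 0.1 (median r 0.185), against 6 of 60 pairs with different numbers (median r -0.0842), so the numbers did not pair every library. Genes averaging under 10 counts per library, TBX4 and EOMES among them, rest on few reads, so their differences are uncertain at this depth.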
